A study of Lotus japonicus with 12 samples.

Results

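In root nodules of the legume Lotus japonicus, where rhizobia fix nitrogen inside plant cells, 96 genes had a higher transcript level in mature than in young nodules, both in wild type and in a heme synthesis mutant. They were selected by their values in these same 12 libraries, out of 16701 genes that met the level conditions and 29531 rows in the table. A gene was taken if its ID carried a chromosome number from 1 to 6 and did not end in _LC, if it reached 1 FPKM (fragments per kilobase of transcript, relative to the library's mapped fragments) in at least 3 libraries, and if its mean over the 12 libraries was under 1000 FPKM. The group medians of log2(FPKM + 1) then had to be at least 0.75 higher at 21 than at 10 days post inoculation (dpi) in each genotype, and to differ by less than 1 between the genotypes at each age. The rule allowed up to 150 genes, and 96 met it. The rise with age and the likeness of the genotypes therefore define these genes and are not findings about them.

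The libraries came from root nodules of wild-type (WT) plants and of cpop1 mutants, which the labels also call hemf2, at 10 dpi (young nodules) and 21 dpi (mature nodules), with 3 libraries in each of the 4 groups. All plants had been inoculated as seedlings with Mesorhizobium loti. The series title names CPOP1 as an enzyme of heme synthesis, and the study set out to find the pathways that depend on it in nodules. The labels give neither the mutant allele nor the number of plants in a library, and they leave it unsaid if separate plants or pots stand behind the 3 libraries.

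In a maturing legume nodule, infected plant cells fill with bacteroids, the form in which rhizobia fix nitrogen. The plant supplies them with carbon and with leghemoglobin, the heme protein that binds oxygen and keeps it low around the oxygen-sensitive nitrogenase, and it takes up the fixed nitrogen. Of the 29531 IDs, 0 were found in RefSeq's table of genes for LjGifu_v1.2, so the genes are given by ID and nothing is said of what their products do. The mutated gene, nodule marker genes and sequences could therefore not be looked up by name, and they were not analysed here.

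Read depth is unknown. The FPKM totals ranged from 985272 to 1224719 per library, and between 18486 and 20623 rows reached 1 FPKM in a library. WT 10 dpi replicate 3 stood apart from the other libraries of its group: among the 16701 genes that met the level conditions it was at least 2-fold away from the mean of replicates 1 and 2 in 31.5%, on the log2(FPKM + 1) scale. It was kept under its label. Several counts are also given without it, while the estimates for single genes include it.

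The 96 genes together held 0.286%, 0.296% and 0.301% of all FPKM in the WT libraries at 10 dpi, and 0.610%, 0.572% and 0.586% at 21 dpi. In cpop1 they held 0.240%, 0.237% and 0.226% at 10 dpi, and 0.494%, 0.494% and 0.474% at 21 dpi. Every mature library was above every young one, and at each age every cpop1 library was below every WT library. The mean share was 0.294 ± 0.0079% in young and 0.590 ± 0.0193% in mature WT nodules, and 0.234 ± 0.00752% and 0.487 ± 0.0113% in cpop1 (SD, n = 3 libraries each). A share of summed FPKM weighs genes by their level. The per-library median of log2(FPKM + 1) over the 96 genes was 3.15 ± 0.26 in WT and 3.05 ± 0.06 in cpop1 at 10 dpi. At 21 dpi it was 4.36 ± 0.12 in WT and 4.44 ± 0.16 in cpop1, so not lower in the mutant (SD, n = 3 libraries each). The rule fixes the direction with age. In whole nodules, more cells of a type that holds a transcript and more of that transcript per cell cannot be told apart.

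The rule put a floor under the rise in each genotype. The difference of medians ran from 0.77 to 3.29 on the log2(FPKM + 1) scale in WT, with a median over the 96 genes of 1.07, and from 0.76 to 3.21 in cpop1, with a median of 1.21. Over all 22249 tested genes the medians of the same differences were -0.18 in WT and -0.20 in cpop1, so that the typical gene of the table was lower in mature nodules in FPKM as deposited. As ratios of mean FPKM, the median increase was 2.41-fold in WT and 2.80-fold in cpop1. The smaller of a gene's 2 rises was at least 1 for 51 genes, at least 1.5 for 14 and at least 2 for 5, and it lay between 0.75 and 1 for the other 45.

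**Figure D1:**
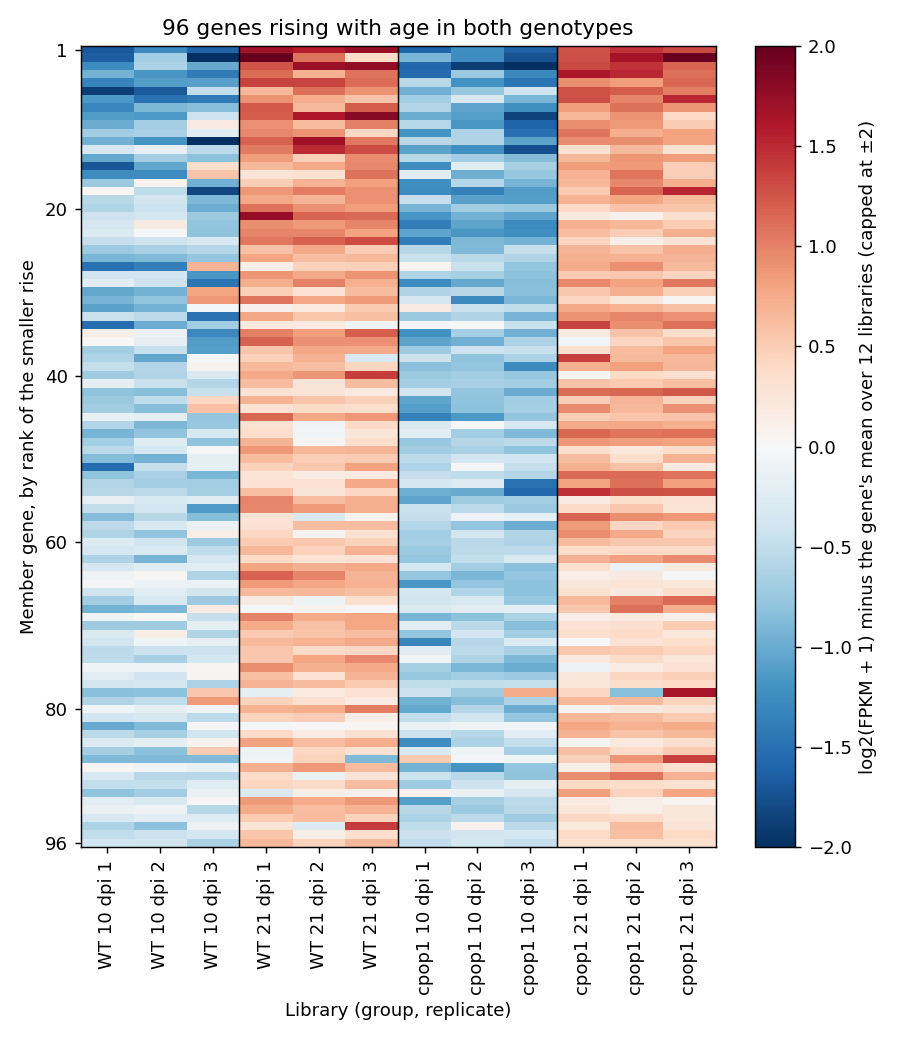
Heat map of log2(FPKM + 1) minus each gene's mean over the 12 libraries (colour, capped at 2 in either direction), with the 96 genes in rows by the size of the smaller rise and the libraries in columns by group and replicate. Both blocks of 21 dpi libraries are red and both blocks of 10 dpi libraries blue in most rows, with exceptions in WT 10 dpi replicate 3 and in some other libraries.

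The rule used group medians, and the single libraries were as follows. In WT, every mature library was above every young one for 82 of the 96 genes, against 16.2% of all tested genes. In cpop1 this held for 94 genes, against 17.5% of all tested genes. For 74 genes all 6 mature libraries were above all 6 young libraries whatever the genotype, against 1.81% of all tested genes. With limma fitted to all 22249 tested genes, 84 of the 96 were higher at 21 dpi in WT and 89 in cpop1 at an adjusted p under 0.05, 82 of them in both genotypes and 5 genes in neither. The shares of all tested genes called higher were 11.3% in WT and 8.03% in cpop1. Called lower were 0 of the 96 in either genotype, beside 24.4% of all tested genes in WT and 21.5% in cpop1. The rule used the same contrasts, so nothing is read from these counts.

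**Figure D2:**
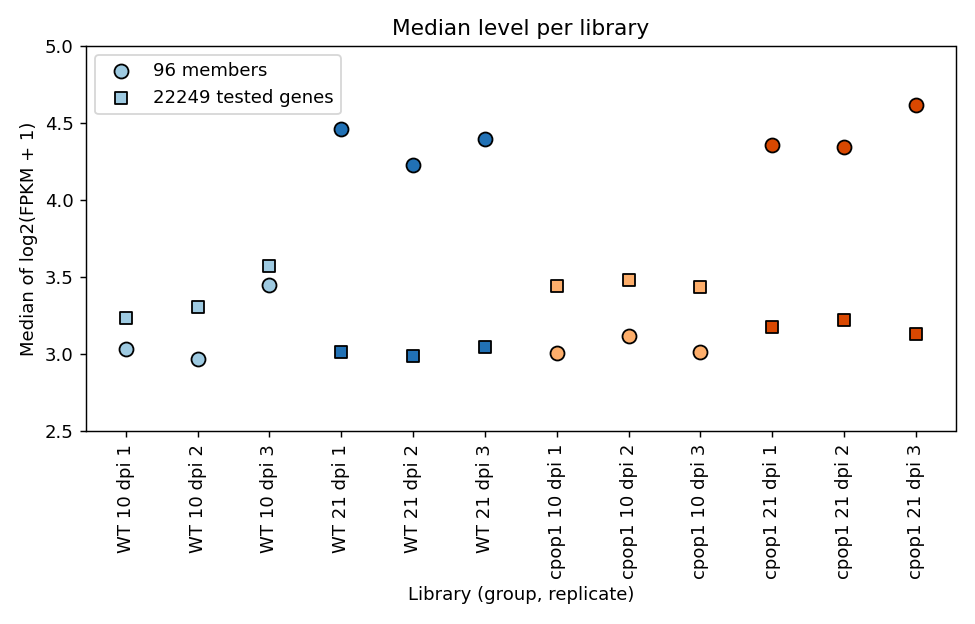
Median of log2(FPKM + 1) per library for the 96 genes (circles) and for the 22249 tested genes (squares), with 1 point per library and the libraries by group and replicate. The medians of the 96 genes lie between 2.97 and 3.45 in the young libraries and between 4.23 and 4.62 in the mature ones, while the squares are lower in mature than in young libraries.

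LotjaGi5g1v0068000 had the largest rise by the rule's measure. In WT it was at 0.85, 1.44 and 0.95 FPKM at 10 dpi and at 18.0, 16.5 and 18.7 FPKM at 21 dpi. In cpop1 it was at 0.96, 1.54 and 0.93 FPKM at 10 dpi and at 13.3, 15.1 and 13.8 FPKM at 21 dpi. The young libraries of the genotypes overlapped, and the mature WT libraries were all above the mature cpop1 libraries. The ratio of mean FPKM was 16.4 in WT and 12.3 in cpop1, and the log2 differences were 3.18 ± 0.16 and 2.82 ± 0.16 (SE from limma, 3 libraries a group).

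LotjaGi5g1v0075600, the next by the same measure, was far more variable. Its WT values were 0.48, 1.9 and 0 FPKM in young and 18.5, 8.89 and 5.01 FPKM in mature nodules. In cpop1 it stood at 1.48, 0.97 and 0.39 FPKM and then at 10.4, 13.8 and 17.4 FPKM. Young and mature libraries did not overlap in either genotype, but the mature WT libraries alone spanned more than a 3-fold range, and the log2 differences of 2.69 ± 0.47 and 2.94 ± 0.47 (SE) carry that spread.

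LotjaGi4g1v0311300 joined a large rise with a high level. It was at 40.8, 63.4 and 48.97 FPKM in young WT nodules and at 239, 331 and 341 FPKM in mature ones. The young cpop1 libraries were at 32.6, 26.1 and 19.02 FPKM, all below those of WT, and the mature ones at 249, 273 and 223 FPKM, within and just below the WT range. Its log2 difference with age was 2.55 ± 0.22 in WT and 3.24 ± 0.22 in cpop1 (SE), and at 10 dpi its genotype difference by limma was the second most negative of the 96, -0.96 ± 0.22.

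By level in young nodules the genes fell into 3 classes. For 6 genes all young libraries of both genotypes were under 1 FPKM. Another 45 had a mean under 10 FPKM over the 6 young libraries, and 45 had a mean of 10 FPKM or more. The mean over the 6 mature libraries ran from 1.36 to 5.84 FPKM in the first class, from 1.47 to 36.0 FPKM in the middle class and from 23.3 to 529.7 FPKM in the last. The median of the 96 genes in young nodules, 7.44 FPKM, was below the 14.6 FPKM of all genes that met the level conditions.

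On the log2(FPKM + 1) scale the rises were of like size in the middle and the last class. The median rise was 1.17 in WT and 1.27 in cpop1 for the middle class, and 1.04 and 1.06 for the last. For the 6 genes under 1 FPKM it was 0.93 in WT and 1.33 in cpop1, on a scale that understates the change of such low values. To a lesser extent the scale also understates it in the middle class, whose median level in young nodules was 2.46 FPKM. For these 6 genes all 6 mature libraries were above all 6 young ones, as they were for 30 of 45 in the middle class and 38 of 45 in the last. Of the 96 genes, 15 stayed under 5 FPKM in every library.

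LotjaGi1g1v0387000 had the lowest mean at 21 dpi. Its SD within groups was 0.084 on the log2(FPKM + 1) scale, which narrows the spread of such low values. It went from 0.39, 0.49 and 0.45 FPKM to 1.47, 1.69 and 1.38 FPKM in WT. In cpop1 it went from 0.11, 0.2 and 0.06 FPKM to 1.3, 1.26 and 1.03 FPKM. The young cpop1 libraries were all below the young WT libraries, and the mature ones were all below those of WT as well.

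LotjaGi4g1v0080600, the next lowest, met the rule with a log2 difference smaller than its error, 0.47 ± 0.61 in WT and 0.54 ± 0.61 in cpop1 (SE). Its WT libraries stood at 0, 0.02 and 1.6 FPKM and then at 0.56, 1.05 and 1.19 FPKM, and its cpop1 libraries at 0.33, 0.1 and 2.01 FPKM and then at 1.38, 0 and 4.64 FPKM. It had the largest spread between replicates of the 96, an SD of 0.84 within groups on the log2(FPKM + 1) scale. It and LotjaGi4g1v0066150, both under 5 FPKM throughout, were the genes whose young and mature libraries overlapped in both genotypes.

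At the other end of the scale, LotjaGi3g1v0184100 had the highest mean in mature nodules. WT libraries were at 250, 286 and 354 FPKM at 10 dpi and at 664, 580 and 588 FPKM at 21 dpi. The cpop1 libraries were at 224, 232 and 207 FPKM and then at 454, 423 and 470 FPKM. They were all below those of WT at both ages, while the mean rose 2.06-fold in WT and 2.03-fold in cpop1.

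LotjaGi1g1v0654200 was second in level. It went from 230, 237 and 173 FPKM to 427, 391 and 415 FPKM in WT, and from 174, 151 and 174 FPKM to 303, 279.9 and 299 FPKM in cpop1. The ratio of means was 1.93 in WT and 1.77 in cpop1, and every cpop1 library was below every WT library in mature but not in young nodules.

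**Figure D3:**
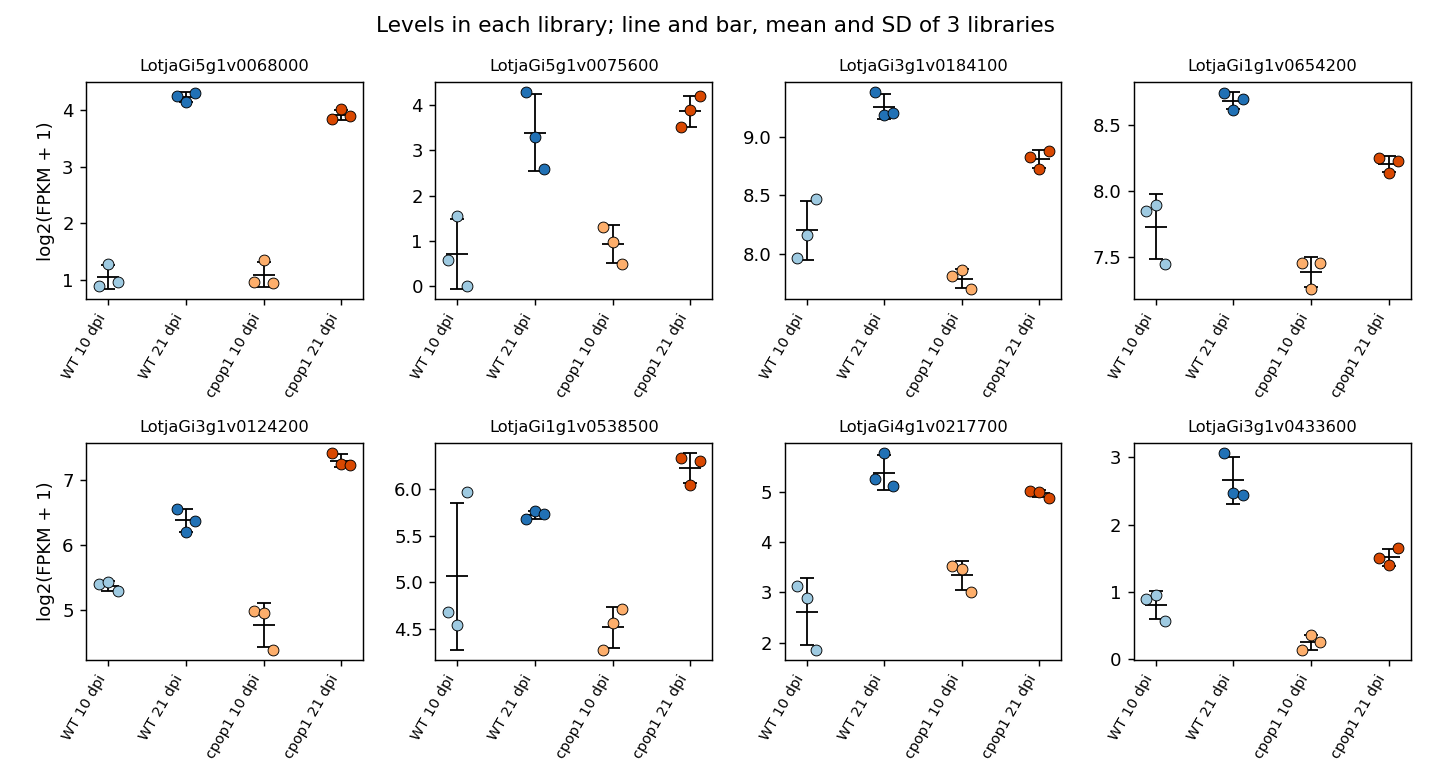
log2(FPKM + 1) in each library (points) with the mean and SD of 3 libraries (line and bar) for 8 genes: the 2 with the largest rise, the 2 with the highest level in mature nodules, and the 2 with the most positive and the 2 with the most negative difference of age changes (cpop1 minus WT). LotjaGi5g1v0068000 shows tight groups far apart, and LotjaGi1g1v0538500 shows WT 10 dpi replicate 3 at 61.6 FPKM, above the mature WT libraries.

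Replicates of the 96 genes lay about as close as those of other genes. The SD within groups had a median of 0.23 on the log2(FPKM + 1) scale, from 0.071 to 0.84, against 0.27 over all genes that met the level conditions. The tightest was LotjaGi3g1v0549600, at 61.1, 62.7 and 67.4 FPKM and then 202, 178 and 182 FPKM in WT. In cpop1 it was at 84.9, 79.9 and 76.4 FPKM and then at 191, 188 and 187 FPKM. Its young cpop1 libraries were all above the young WT ones, and its mature libraries of the 2 genotypes overlapped at close to the same level.

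The genotypes stayed within the limits of the rule but were not the same. At 10 dpi the difference of medians, cpop1 minus WT, ran from -0.97 to 0.96 with a median of -0.12, and at 21 dpi from -0.99 to 0.95 with a median of -0.05. It was within 0.5 at both ages for 48 genes and within 0.25 at both for 13. Of the 96 genes, 43 were lower in cpop1 at both ages and 31 higher at both, 12 were lower at 10 and higher at 21 dpi, 8 were the reverse, and 2 had equal medians at 10 dpi. The genotype differences at 10 and at 21 dpi come from separate libraries, and across the 96 genes Pearson's r between them was 0.65, a description within the window that the rule set. Of all tested genes, 35.1% were lower in cpop1 at both ages, 40.7% higher at both, 11.1% lower and then higher, and 12.2% the reverse.

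**Figure D4:**
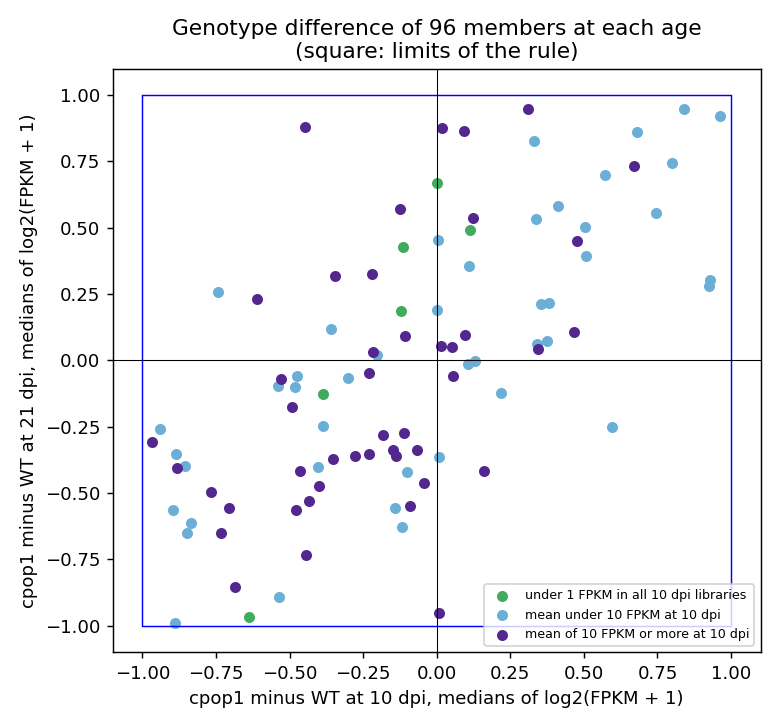
Genotype difference, cpop1 minus WT, of the medians of log2(FPKM + 1) at 10 dpi (horizontal) and 21 dpi (vertical), 1 point per gene and coloured by the level in young nodules; the square marks the limits of the rule. Most points lie in the lower left (43 genes) or the upper right (31 genes).

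Library by library, 26 of the 96 genes had every young cpop1 library below every young WT library and 7 had every one above, where 15.7% and 12.8% of all tested genes did. At 21 dpi the counts were 37 below and 26 above, against 36.2% and 40.1% of all tested genes. For 28 genes the genotypes overlapped at both ages, beside 17.7% of all tested genes. Another 19 genes were apart and lower in cpop1 at both ages and 6 apart and higher at both, beside 10.7% and 8.37%. By limma's adjusted p of 0.05, young cpop1 nodules held 18 of the 96 genes at a lower level than WT and 5 at a higher one, beside 11.3% and 11.4% of all tested genes. At 21 dpi 22 were lower and 16 higher, beside 28.4% and 29.2%. The rule left out large genotype differences, so nothing is read from these counts.

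The count at 10 dpi rested on single libraries. Of the 96 genes, 23 passed with all libraries, 45 without WT 10 dpi replicate 3, and 11, 11 and 12 without WT 10 dpi replicate 1, WT 10 dpi replicate 2 and cpop1 10 dpi replicate 2. Of all tested genes, 22.7% passed with all libraries, 63.9% without WT 10 dpi replicate 3, and 10.1%, 9.36% and 10.6% without the other 3 in the same order. A limma fit to the young libraries alone called 0 of the 96 at an adjusted p under 0.05 and 24 of them at an unadjusted p under 0.05, beside 3.06% and 23.3% of all tested genes. The genotype differences of single genes at 10 dpi are therefore given by their libraries rather than by a call.

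LotjaGi4g1v0066150 had the most positive genotype difference by limma at both ages, 1.01 ± 0.33 at 10 and 1.07 ± 0.33 at 21 dpi (SE). It was at 0 FPKM in all 3 young WT libraries and at 0.76, 1.51 and 0 FPKM in the mature ones. In cpop1 it was at 1.65, 0.79 and 0.74 FPKM in young and at 1.55, 2.39 and 3.74 FPKM in mature nodules. Every cpop1 library was above every WT library of its age, at levels close to the lowest the rule admits.

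LotjaGi1g1v0067800 was next at both ages, at a higher level. WT libraries were at 4.47, 6.91 and 8.65 FPKM and then at 16.8, 16.7 and 13.8 FPKM, and cpop1 libraries at 14.4, 14.7 and 10.5 FPKM and then at 38.9, 28.9 and 32.6 FPKM. The mutant stood above WT in every library at both ages, by 0.91 ± 0.22 at 10 dpi and 1.03 ± 0.22 at 21 dpi on the log2 scale (SE). The level in young mutant nodules was close to that in mature WT nodules.

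LotjaGi2g1v0379900 had the most negative difference at 10 dpi. It was at 4.22, 4.84 and 3.5 FPKM and then at 12.5, 17.5 and 15.2 FPKM in WT, and at 2.12, 1.82 and 0.94 FPKM and then at 7.08, 9.34 and 7.14 FPKM in cpop1. The mutant was lower in every library at both ages, and the log2 difference with age was 1.63 ± 0.21 in WT and 1.77 ± 0.21 in cpop1 (SE).

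In mature nodules the most negative difference was that of LotjaGi3g1v0433600, -1.14 ± 0.20 (SE). It rose from 0.85, 0.94 and 0.48 FPKM to 7.36, 4.55 and 4.44 FPKM in WT, and from 0.1, 0.29 and 0.19 FPKM to 1.84, 1.63 and 2.13 FPKM in cpop1. LotjaGi1g1v0385100 followed with -0.90 ± 0.28. Its libraries went from 22.3, 21.7 and 36.6 FPKM to 116, 154 and 177 FPKM in WT, and from 24.3, 22.4 and 12.9 FPKM to 79.1, 92.7 and 65.3 FPKM in cpop1. For both genes all mature cpop1 libraries were below all mature WT libraries.

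The size of the rise differed between the genotypes for some genes. It was larger in cpop1 for 51 genes and larger in WT for 45, and the 2 rises were within 0.25 of each other for 46. Across the 96 genes Pearson's r between the rises in WT and in cpop1, again from separate libraries, was 0.69 and Spearman's rho 0.54, a description only, since the rule set a floor under both. In the limma fit the difference of age changes passed an adjusted p of 0.05 for 4 of the 96 genes, all with the larger rise in cpop1, where 9.71% of all tested genes passed in that direction and 10.2% in the other. Without WT 10 dpi replicate 3, 19 of the 96 passed, 15 of them with the larger rise in cpop1, beside 38.9% of all tested genes, 17.1% in that direction. The rule holds this difference within bounds, so the count says nothing of these genes as a group.

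**Figure D5:**
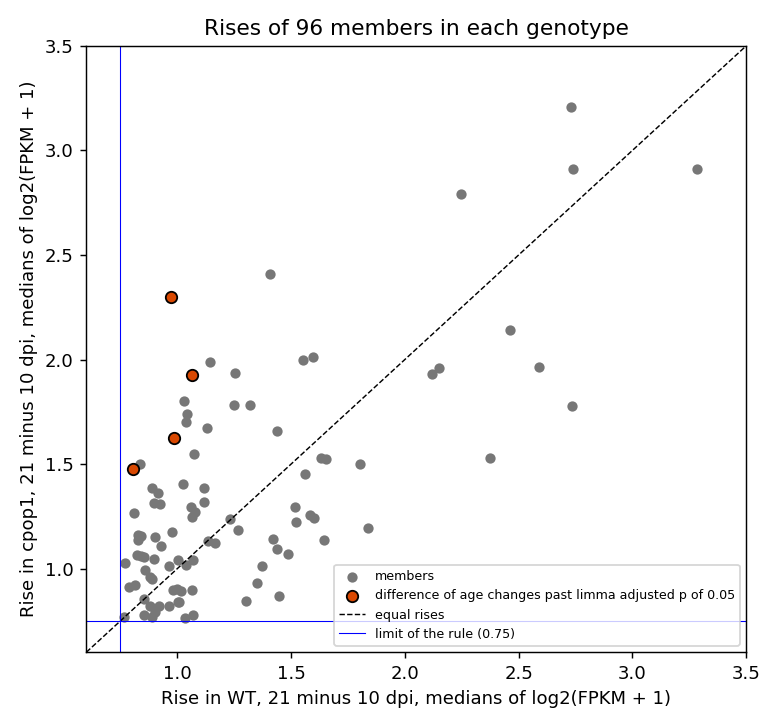
Rise with age in WT (horizontal) and in cpop1 (vertical), as differences of medians of log2(FPKM + 1), 1 point per gene, with the line of equal rises and the 0.75 limits of the rule. Points scatter on both sides of the line, and the 4 genes whose difference of age changes passed the limma threshold (orange) lie above it.

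LotjaGi3g1v0124200 had the most positive difference, 1.51 ± 0.23 on the log2 scale (SE). It went from 41.2, 42.3 and 38.1 FPKM to 93.5, 73.0 and 81.9 FPKM in WT. In cpop1 it went from 30.7, 29.98 and 19.99 FPKM to 169.8, 151 and 149 FPKM. The young mutant libraries were all below, and the mature mutant libraries all above, those of WT, a crossing without overlap at either age that 3 of the 96 genes showed, beside 1.78% of all tested genes. The reverse crossing was shown by 0 of the 96, beside 1.68%.

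LotjaGi1g1v0538500 was next in size, 1.05 ± 0.43, but did not pass the threshold. Its young WT libraries were at 24.7, 22.2 and 61.6 FPKM, so that replicate 3 alone exceeded the mature WT libraries at 49.98, 53.3 and 52.0 FPKM. In cpop1 it went from 18.3, 22.6 and 25.2 FPKM to 79.5, 64.6 and 77.8 FPKM.

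The most negative difference was that of LotjaGi4g1v0217700, -1.13 ± 0.43 (SE), which did not pass either. It went from 7.72, 6.36 and 2.61 FPKM to 37.2, 53.7 and 33.9 FPKM in WT. In cpop1 it went from 10.5, 10.1 and 7.06 FPKM to 31.5, 31.1 and 28.6 FPKM. The lowest young WT value is that of replicate 3, and it enters the limma estimate. By medians, the rises were 2.37 in WT and 1.53 in cpop1. All mature WT libraries were above all mature cpop1 libraries, and the young ones overlapped. LotjaGi3g1v0433600, described above for its level in mature nodules, came next with -0.59 ± 0.28.

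WT 10 dpi replicate 3, the library that stood apart, was above both other replicates for 46 of the 96 genes and below both for 36, beside 61.9% and 31.4% of all genes that met the level conditions. It was at least 2-fold away from their mean for 19 genes, and the median absolute distance was 0.41 on the log2(FPKM + 1) scale, where replicates 1 and 2 differed by a median of 0.14. Of the 14 genes without full separation of the ages in WT, 13 were fully separated once this library was left out. Separation of 3 from 2 libraries is easier, and the rule already holds the WT medians at least 0.75 apart. The share of all tested genes without this library is not given here, so nothing is read from the count. When the whole rule was applied without it, 88 of the 96 genes met it again.

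The genes it moved most went both ways. LotjaGi5g1v0197800, second of the 96 in spread between replicates, was at 1.73 and 1.97 FPKM in replicates 1 and 2 and at 11.3 FPKM in replicate 3, above the mature WT libraries at 7.34, 9.63 and 9.67 FPKM. LotjaGi3g1v0426700 was at 0 FPKM in replicates 1 and 2 and at 2.54 FPKM in replicate 3, with mature WT libraries at 1.85, 1.95 and 4.06 FPKM. LotjaGi5g1v0349500 was at 6.71 and 4.31 FPKM and then at 1.12 FPKM in replicate 3, and LotjaGi3g1v0404700 at 12.9 and 10.8 FPKM and then at 4.21 FPKM. The first pair had a replicate 3 within or above the mature range, and the second pair one below the young cpop1 values of 1.96 to 2.45 FPKM and 4.49 to 6.99 FPKM.

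The 96 genes lay on all 6 chromosomes, read from the digit that follows LotjaGi in the naming scheme of the IDs. Chromosome 1 held 35 of them, or 36.5%, and 26.5% of all genes that met the level conditions. Chromosome 3 held 17, chromosome 5 held 14, chromosome 2 held 12, chromosome 4 held 11 and chromosome 6 held 7. As a share of the genes that met the level conditions, members made up between 0.354% on chromosome 6 and 0.790% on chromosome 1. No test was made of this unevenness.

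Few members were neighbours. With the numbered genes of the table in ID order, 6 of the 96 stood within 5 rows of another member, in 3 pairs. LotjaGi2g1v0293300 and LotjaGi2g1v0293600 were adjacent and shared a profile. The first was at 43.7, 42.3 and 56.0 FPKM and then at 94.4, 92.4 and 87.9 FPKM in WT, and at 59.1, 44.2 and 38.1 FPKM and then at 167, 171 and 182 FPKM in cpop1. The second was at 9.34, 10.4 and 14.9 FPKM and then at 24.0, 17.9 and 22.2 FPKM in WT, and at 15.8, 11.1 and 9.63 FPKM and then at 42.5, 40.3 and 41.2 FPKM in cpop1. In both, young libraries of the genotypes overlapped and every mature mutant library was above every mature WT library, with a rise of 1.07 and 1.03 in WT and of 1.92 and 1.80 in cpop1.

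LotjaGi1g1v0705200 and LotjaGi1g1v0705300 were adjacent as well and differed in level. The former rose from 20.6, 23.6 and 15.9 FPKM to 52.9, 49.7 and 58.6 FPKM in WT and from 21.9, 13.9 and 13.8 FPKM to 50.4, 53.7 and 48.0 FPKM in cpop1, with the genotypes overlapping at both ages. The latter rose from 2.52, 2.29 and 2.56 FPKM to 5.05, 5.25 and 6.59 FPKM in WT and from 0.84, 1.5 and 0.89 FPKM to 2.88, 3.23 and 3.5 FPKM in cpop1, lower in every mutant library. Whether such neighbours share sequence, so that reads could be split between them, is not given in the sources used here. Of 159 other genes directly beside a member, 2 (1.26%) were at least 0.75 higher at 21 dpi in both genotypes, beside 1.54% of all genes that met the level conditions. The 1.54% counts the 96 members themselves, which the 159 leave out, so the 2 shares are not like for like. Without the members, 162 of the genes that met the level conditions were that much higher in both genotypes.

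The genes nearest to the limits of the rule differed little in the size of the value that decided. LotjaGi5g1v0362800 was the last gene inside the limit on the rise, with 1.03 in WT and 0.76 in cpop1. LotjaGi1g1v0425500 was the first outside it, with 0.747 in WT and 1.27 in cpop1. By the limit on the genotype difference, LotjaGi2g1v0379900 was just inside at -0.99 (21 dpi), and LotjaGi6g1v0332900 was just outside at 1.08 (10 dpi), where WT 10 dpi replicate 3 read 379 FPKM beside 107 and 117 in the other replicates.

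Of the 16701 genes that met the level conditions, 1019 were at least 0.75 higher at 21 than at 10 dpi in WT and 1206 in cpop1. In both genotypes 258 were. They made up 25.3% of the 1019 genes, where 1206 of all 16701 were that much higher in cpop1. Of the 1206 genes they made up 21.4%, where 1019 of all 16701 were that much higher in WT. Both shares were above those over all genes, and no test was made of the overlap. Of these 258 genes, 162 differed by 1 or more between the genotypes at some age and were left out. At 21 dpi 94 of them were higher in cpop1 by that margin and 52 lower, and at 10 dpi 74 were higher and 52 lower. The mirror of the rule, with falls in place of rises, was met by 516 genes in FPKM as deposited.

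The same thresholds were met by rows that the rule leaves aside for their ID or level. They were met by 22 of 2456 tested rows ending in _LC (0.896%), by 28 of 2957 tested rows beginning with BGI_novel (0.947%) and by 5 of 56 tested rows whose ID has C or M in place of a chromosome number (8.93%), beside 0.575% of the genes that met the level conditions. The 0.575% is of genes with a mean under 1000 FPKM, a limit that was not applied to those other rows. Among the 69 numbered genes with a mean of 1000 FPKM or more, 2 met the thresholds.

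How many genes met the rule depended on how libraries were scaled to each other. The median of all tested genes, -0.23 in WT and -0.20 in cpop1 in the limma fit, moved to 0.13 and 0.08 when each library was shifted to a common median. All 96 genes stayed higher at 21 dpi in both genotypes under each of the 4 other scalings. The rule's floor under each rise largely set this outcome. It also largely set the gap between the medians of the 96 genes and those of all tested genes, so nothing is read from either. The median of the 96 genes in WT and in cpop1 was 1.37 and 1.52 after the shift to a common median, against 0.13 and 0.08 for all tested genes, and 0.91 and 1.09 after rescaling to a common total, against -0.33 and -0.36. The number of genes meeting the rule, before its limit of 150, ranged from 65 after rescaling to a common total to 277 after the shift to a common median.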

How the data were processed

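The authors deposited FPKM values with 1 column per library and 2 decimals, per the file headers. Per the submitters' processing notes, the tools included HISAT and Bowtie2 2.2.5. Build, annotation and the program that computed FPKM: not given in the sources used here. Each FPKM value is relative to its library's total, so a change in a few abundant transcripts shifts all others. Columns named hemf2 were tied to the cpop1 samples through the labels. Read depth is unknown.

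The 96 genes, their classes and the rules for naming IDs were chosen with earlier results of these data known. IDs were named for extreme values among the 96: rise, level, spread, genotype difference, difference of age changes, distance of WT 10 dpi replicate 3, and neighbours in ID order (the first 2 of 3 equal pairs). LotjaGi4g1v0311300 was named for its genotype difference at 10 dpi, and the genes at the limits by the limits.

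Tests used limma 3.58.1 in R 4.3.3 on log2(FPKM + 1) of the 22249 rows with at least 1 FPKM in at least 3 libraries, with 1 mean per group, all 12 libraries, an intensity trend and Benjamini-Hochberg adjustment over all rows. The script was tested on simulated data. Adjusted p-values reflect the spread among these 12 libraries alone, which may be technical. Tables and plots used Python 3.11.15, pandas 2.3.3, NumPy 2.4.6 and matplotlib 3.10.9. Alternatives were other pseudocounts, filters, scalings, variance models and library weights, a replicate block, and each library left out.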

Additional observations from a re-analysis of the deposited data

Results flagged for a closer look

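The difference of age changes, cpop1 minus WT, passed the limma adjusted p of 0.05 for 4 of the 96 genes, so that each was marked by a test of the difference itself. The differences on the log2(FPKM + 1) scale were 1.51 for LotjaGi3g1v0124200, 0.93 for LotjaGi2g1v0293300, 0.85 for LotjaGi2g1v0225400 and 0.64 for LotjaGi4g1v0228400. All were larger rises in cpop1. LotjaGi4g1v0228400 had the second smallest spread between replicates of the 96, with 77.3, 86.2 and 71.7 FPKM and then 165, 151 and 154 FPKM in WT, and 98.8, 95.9 and 90.1 FPKM and then 298, 298 and 291 FPKM in cpop1. LotjaGi2g1v0225400 was at or under 0.55 FPKM in every young library and at 1.51, 0.76 and 1.29 FPKM in mature WT and 2.64, 3.02 and 2.12 FPKM in mature cpop1 nodules. Of all tested genes 9.71% passed in this direction, and the rule that chose the genes used the same values.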

How the results depend on the processing

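No gene of the 96 was lower at 21 dpi in either genotype under any pseudocount, filter, scaling or left-out library tried, an outcome largely set by the rule's floor under each rise. The number meeting the rule again was 62 after rescaling to a common total, against 96, and 78 to 92 when single libraries were left out. It was 78 with a pseudocount of 0.1, 85 with a pseudocount of 0.5 and 78 with a filter of 5 FPKM in 3 libraries. Without a filter it was 96, and after the other scalings it was 88 to 92. The median rise, 1.07 in WT and 1.21 in cpop1, was 1.28 and 1.51 with a pseudocount of 0.1 and 1.32 and 1.501 after the shift to a common median. In cpop1 it was also 1.33 with a pseudocount of 0.5, 1.42 with quantile-normalized values, 1.03 with libraries brought to 1 common total and 1.33 when that was done without the 20 most abundant genes. It was 1.004 to 1.102 in WT and 1.208 to 1.245 in cpop1 without single libraries. Of the 96 genes, 84 were called for the WT age change (77 to 94 without single libraries) and 89 for the cpop1 age change (82 to 93). For the genotype effect at 10 dpi 23 were called, with 72 under library weights, 0 in a fit to the compared groups (24 at an unadjusted p under 0.05) and 11 to 45 without single libraries. For the effect at 21 dpi 38 were called, with 59 under library weights, 59 in a fit to the compared groups and 27 to 51 without single libraries. For the difference of age changes 4 were called, with 38 under library weights and 3 to 19 without single libraries. The cause of these shifts was not tested, and the estimate of the library weights stopped short of its tolerance. Among all tested genes, library weights raised the calls at 10 dpi from 5053 to 18582, and a fit to the compared groups lowered them to 681.

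With the replicate block, 82, 89, 21, 34 and 5 of the 96 were called in these 5 comparisons. Deviations of libraries with the same number correlated between -0.12 and 0.27 across genes, and a library correlated best with its own number in 13 of 36 comparisons. With so few libraries in a group, this check cannot decide if the numbers pair the samples, and no conclusion is drawn from it. Read depth is unknown, so the reads behind a low FPKM value cannot be given.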
